A study of Homo sapiens with 6 samples.

Results

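The genes examined here encode the enzymes that build sterols and fatty acids, the sterol regulatory element binding proteins (SREBPs) that control them, and a few sterol transporters. The rule for the list was known function and used no measured value, although earlier results of these data were known when it was made. The list held 40 of the 61155 gene symbols counted. Of these, 39 passed edgeR's filter on low counts and were tested together with all 19521 genes that passed. The exception was NPC1L1, the sterol uptake transporter of the gut, which had 11, 3 and 5 counts in WT and 6, 2 and 1 counts in S6K1-/- libraries.

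Bulk RNA sequencing compared undifferentiated H7 hESCs, an established line of human embryonic stem cells, with H7 cells in which RPS6KB1, the gene of the kinase S6K1, had been cut with CRISPR/Cas9. Both groups were feeder-free cultures on Matrigel in TeSR-E8 medium and had 3 libraries each, named WT and S6K1-/-. GEO's labels name week 5 and a knockdown, while the methods describe undifferentiated cells and a knockout. All S6K1-/- libraries came from clone #1, so that genotype and clone cannot be told apart, and separate cultures within a group are not stated, so that p-values measure the spread between libraries, which may be technical. No batch of culture, library preparation or sequencing is given in the sources used here.

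Library totals ran from 21896698 to 24473013 counts. RPS6KB1 had 831, 791 and 777 counts in WT and 464, 464 and 438 in S6K1-/- libraries, a log2 fold change of -0.75 (standard error, SE, 0.057). The stem cell markers POU5F1 and SOX2 had log2 fold changes of -0.04 and -0.04 and were detected at 181 and 301 CPM (counts scaled by library size to a common total) in WT cells, with a transcript of POU5F1 that also aligned to an alternate contig of the assembly. Summed over 9 pluripotent stem cell markers, the level was 5240 to 5388 CPM in WT and 4953 to 4980 CPM in S6K1-/- libraries, with DNMT3B lower and PRDM14 higher at an adjusted p under 0.001, and without DNMT3B the groups overlapped, at 3809 to 3988 and 3792 to 3891 CPM. Mesenchyme markers summed to 139 to 145 CPM in WT and 66.3 to 68.2 CPM in S6K1-/- libraries, where COL1A1 and COL1A2 were lower and COL3A1, LUM, DCN, TWIST1 and PRRX1 stayed at or under 3 counts. Neuroectoderm markers summed to 448 to 465 and 432 to 448 CPM, with PAX6 higher and DCX lower. Without NES, the most abundant, they summed to 16.2 to 18.0 CPM in WT and 16.0 to 17.8 CPM in S6K1-/- libraries. Mesoderm and endoderm markers summed to 18.8 to 23.0 and 17.6 to 18.9 CPM, and without MIXL1, the most abundant, to 8.22 to 11.4 CPM in WT and 4.73 to 5.83 CPM in S6K1-/- libraries. Amnion and trophoblast markers summed to 20.5 to 22.4 and 17.7 to 19.8 CPM, and without GABRP to 5.55 to 7.20 and 3.72 to 4.05 CPM, with CDX2, ISL1 and HAND1 at or under 3 counts. In these lists FOXA2, CXCR4 and KRT7, named after their values were seen, had log2 fold changes of -0.88, -1.26 and -0.82 (edgeR quasi-likelihood adjusted p = 0.00108, 0.0235 and 0.00103), and MIXL1 had 0.24. Of the neuroectoderm markers, SOX1 had 1.29, and of the pluripotent stem cell markers TDGF1 had -0.15 (edgeR quasi-likelihood adjusted p = 0.0174 and 0.0308), which completes the markers past 0.05. The part of these markers in the results that follow was not tested, and in bulk RNA fewer cells of a type and less RNA per cell cannot be told apart.

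SREBPs are made as membrane proteins of the endoplasmic reticulum, where the escort protein SCAP and the INSIG proteins hold them when sterols are plentiful. When sterols run short, SCAP carries them to the Golgi, proteases release their amino-terminal part, and this enters the nucleus and binds sterol regulatory elements before genes of cholesterol and fatty acid synthesis. The growth kinase complex mTORC1, which activates S6K1, is known to promote this release, and S6K1 has been placed upstream of lipogenic transcripts through the kinase SRPK2, so the transcripts of these genes were compared between the genotypes.

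Promoter sequence is shown for the only member past the threshold of an adjusted p under 0.001, HSD17B7, and for SREBF2, the only member whose window held the sterol regulatory element searched for. Both stretches come from RefSeq on GRCh38.p14 and lie before the annotated start of the gene. That of HSD17B7 is chr1:162790452-162790701 on the plus strand, 250 bases that end at the base before the start, and its capitals mark the GC box (GGGCGG) and the CCAAT box, both read here on the opposite strand. That of SREBF2 is chr22:41832952-41833000 on the plus strand, and its capitals mark the element TCACNCCAC, which begins at position -133 from the start.
HSD17B7: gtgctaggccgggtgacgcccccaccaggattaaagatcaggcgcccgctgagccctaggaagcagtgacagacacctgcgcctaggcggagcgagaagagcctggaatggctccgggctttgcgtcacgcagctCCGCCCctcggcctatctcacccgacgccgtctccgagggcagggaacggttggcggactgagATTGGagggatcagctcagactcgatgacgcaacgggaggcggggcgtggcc
SREBF2: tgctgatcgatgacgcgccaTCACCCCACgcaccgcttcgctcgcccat
Of the 40 members, 36 had a window of 300 bases in the table used, from 250 before to 50 after the start, while ACAT2, FDFT1, SQLE and FASN had none. Each motif was searched on both strands, and none of the motifs contains another. TCACNCCAC was found in 1 of 36 members and in 1.39% of 27305 genes with a window. The E-box CACGTG, also bound by SREBPs, was in 5 of 36 members, SCAP, INSIG1, LSS, SC5D and ELOVL5, and in 8.77% of genes. CCAAT, bound by the SREBP partner NF-Y, was in 26 of 36 members (72.2%) and in 39.7% of genes, and GGGCGG, bound by the partner Sp1, was in 33 of 36 (91.7%) and in 48.3% of genes. A gene was counted if any of its windows held the motif, over 35116 windows. The 27305 genes were not selected by expression or function, so their shares and those of the members do not compare like with like. These matches describe letters in the windows and were not set against expression.

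HSD17B7 was the only member past 0.001 between WT and S6K1-/- hESCs, and it was higher in S6K1-/- cells. All 40 together took 0.780% to 0.795% of the counts of a WT library and 0.777% to 0.785% of those of a S6K1-/- library. At an adjusted p under 0.001 (edgeR's quasi-likelihood test, p-values adjusted by Benjamini-Hochberg), this was 1 of 39 members (2.56%), where 3.96% of all genes tested passed, 2.54% lower and 1.42% higher. At an adjusted p under 0.05, 4 of 39 passed (10.3%), with HSD17B7, SCAP and SCD5 higher and ME1 lower, beside 13.8% of all genes, 5.47% higher and 8.31% lower. HSD17B7 and ME1 were past 0.05 under every alternative run, SCAP was not without WT replicate 3 or S6K1-/- replicate 2 (edgeR quasi-likelihood adjusted p = 0.0733 and 0.0868), and SCD5 was not in DESeq2's Wald test. ACACB passed 0.05 without WT replicate 3 and NPC1 without WT replicate 2, and SREBF2 and ELOVL5 passed it in DESeq2's Wald test. In CPM, the WT and S6K1-/- libraries were fully apart for 10 of 39 members (25.6%), and for 30.7% of all genes.
The median log2 fold change of the 39 members was 0.01, beside -0.00 for all genes tested, with 23 members above 0 and 16 below. The median of the absolute log2 fold changes was 0.05 for the members and 0.11 for all genes. It was 0.085 for the 14233 genes with at least the WT level in CPM of the lowest member tested. The median SE was 0.047, 0.083 and 0.064 in the same order, so the sets differed in precision. The interval of 95% around the log2 fold change lay wholly within 0.25 of 0 for 28 of the 39 members (71.8%). This was so for 39.4% of all genes and for 54.1% of the 14233. The part of expression level in these differences was not tested.

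**Figure D1:**
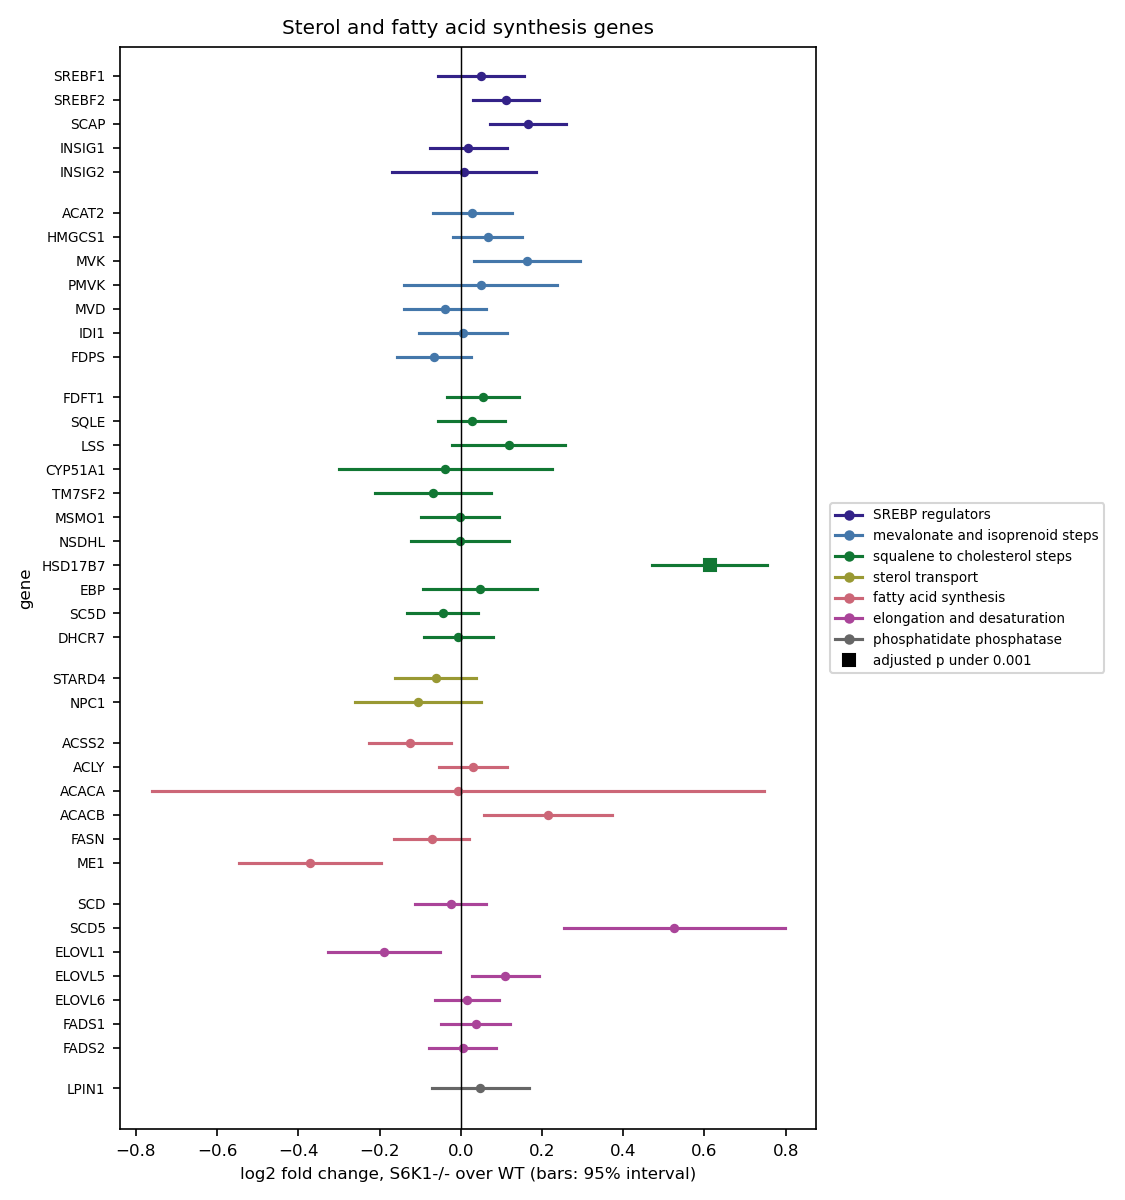
Log2 fold changes of the 39 members tested, S6K1-/- over WT, with bars for the 95% interval of edgeR's fit (n = 3 libraries a group) and colors for the role of the gene; NPC1L1 was not tested. HSD17B7 at 0.61 is the only square, SCD5 lies near it at 0.53, most members sit within 0.25 of 0, and the bar of ACACA runs from -0.76 to 0.75.

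The 5 genes that encode the SREBPs and their handlers had log2 fold changes above 0, where 9642 of the 19521 genes tested did, and none passed 0.001. With a library left out, INSIG1 and INSIG2 reached as low as -0.00596 and -0.0266. SREBF1, which encodes the factor more tied to fatty acid genes, had 1977, 2049 and 1708 counts in WT and 1896, 2036 and 1756 in S6K1-/- libraries. The groups overlapped, and its log2 fold change was 0.05 (95% interval -0.06 to 0.15). SREBF2, whose product is more tied to cholesterol genes, had 8436, 8517 and 7916 counts in WT and 8890, 8933 and 7945 in S6K1-/- libraries. Scaled by library, this was 345 ± 3.29 CPM in WT and 372 ± 6.85 CPM in S6K1-/- cells (SD, n = 3 each). Every S6K1-/- library lay above every WT library in CPM, by a log2 fold change of 0.11 (95% interval 0.03 to 0.19, edgeR quasi-likelihood adjusted p = 0.0662). SREBF2-AS1, antisense to SREBF2, had 252 to 283 counts in WT and 246 to 341 in S6K1-/- libraries, and its exons cover 9.08% of the exonic length of SREBF2.
SCAP, the escort, had 2713, 2550 and 2430 counts in WT and 2718, 2985 and 2576 in S6K1-/- libraries. In CPM the groups did not overlap, at 107 ± 4.22 and 120 ± 4.59 (SD, n = 3 each). The log2 fold change of 0.17 (SE 0.044, 95% interval 0.07 to 0.26) had an edgeR quasi-likelihood adjusted p of 0.0197, which missed 0.001. INSIG1, which retains SCAP and is itself an SREBP target, had 1649, 1789 and 1684 counts in WT and 1653, 1773 and 1551 in S6K1-/- libraries. The order of the libraries was mixed, with a log2 fold change of 0.02 (95% interval -0.08 to 0.11). INSIG2, with the same role but expressed at a lower level, had 230, 246 and 206 counts and 227, 232 and 199 counts, and a log2 fold change of 0.01 (95% interval -0.17 to 0.19).

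The 7 genes of the mevalonate and isoprenoid steps, which turn acetyl-CoA into farnesyl diphosphate, had a median log2 fold change of 0.03. With a library left out, this median ran from -0.00778 to 0.0595. Of the 7, 0 passed either 0.001 or 0.05. HMGCS1, which makes the HMG-CoA of this route, had 12022, 12338 and 11861 counts in WT and 12496, 12155 and 11688 in S6K1-/- libraries. In CPM the groups overlapped at 502 ± 8.40 and 526 ± 15.7 (SD, n = 3 each), with a log2 fold change of 0.07 (95% interval -0.02 to 0.15). Of its exonic length, 37.7% is shared with a gene on the opposite strand, from which its reads cannot be separated where strand was not used in the counting.
MVK, mevalonate kinase, was the only gene of these steps whose groups did not overlap in CPM, with 441, 458 and 425 counts in WT and 466, 503 and 452 in S6K1-/- libraries. Its log2 fold change was 0.16 (95% interval 0.03 to 0.29, edgeR quasi-likelihood adjusted p = 0.0971). The other enzymes stayed close to 0, with log2 fold changes of 0.03 for the acetyl-CoA acetyltransferase ACAT2, 0.05 for the phosphomevalonate kinase PMVK, -0.04 for the decarboxylase MVD, 0.01 for the isomerase IDI1 and -0.07 for the farnesyl diphosphate synthase FDPS. Among them PMVK had the fewest reads, 277 to 336 counts in WT and 273 to 344 in S6K1-/- libraries, and its 95% interval was the widest, from -0.14 to 0.24.

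The 11 genes that lead from farnesyl diphosphate through squalene to cholesterol had a median log2 fold change of -0.00. With a library left out, this median ran from 0.00628 to 0.0436. At 0.001, 1 gene was higher and 0 were lower. The higher gene was HSD17B7, the 3-keto-reductase that acts with MSMO1 and NSDHL in removing methyl groups from the sterol ring, and which can also convert estrone to estradiol. It is annotated as ENSG00000132196.16 at chr1:162790702-162812823 on the plus strand of GRCh38. HSD17B7 had 313, 299 and 283 counts in WT and 457, 456 and 400 in S6K1-/- libraries. All S6K1-/- libraries were far above all WT libraries, the lowest at 18.4 CPM and the highest WT library at 12.9 CPM. The mean rose from 12.4 ± 0.395 CPM in WT to 19.0 ± 0.548 CPM in S6K1-/- cells (SD, n = 3 each), a 1.53-fold increase. The log2 fold change of HSD17B7 was 0.61 (SE 0.066, 95% interval 0.47 to 0.75, edgeR quasi-likelihood, Benjamini-Hochberg adjusted p = 1.16e-05). Leaving out any single library kept it between 0.59 and 0.65, and the adjusted p from 4.44e-05 to 1.64e-04 in the same test. No other annotated gene shares its exons, and its pseudogenes HSD17B7P1 and HSD17B7P2 had at most 2 counts in any library.
The enzymes that act beside HSD17B7 had log2 fold changes close to 0. MSMO1, the methyl sterol oxidase, had 3274, 3484 and 3498 counts in WT and 3277, 3390 and 3158 in S6K1-/- libraries, and NSDHL, the decarboxylating dehydrogenase, had 754, 772 and 665 counts in WT and 712, 724 and 661 in S6K1-/- libraries. The groups overlapped for both genes in CPM, with log2 fold changes of -0.00 for MSMO1 (95% interval -0.10 to 0.09) and -0.00 for NSDHL (95% interval -0.12 to 0.12). On the scale of CPM per kb of exonic length, HSD17B7 was at 2.59 ± 0.0826 in WT and 3.96 ± 0.115 in S6K1-/- cells (SD, n = 3 each), while MSMO1 was at 49.9 ± 2.83 and 49.8 ± 0.978 and NSDHL at 15.2 ± 0.748 and 15.2 ± 0.0321.
SQLE, the squalene epoxidase and an oxygen-dependent, tightly regulated step, had 4899, 5005 and 4840 counts in WT and 5031, 4870 and 4503 in S6K1-/- libraries. Scaled to CPM, the groups overlapped, at a log2 fold change of 0.03 (95% interval -0.06 to 0.11). FDFT1, the squalene synthase, had a log2 fold change of 0.05, LSS, which closes the sterol ring, 0.12 and DHCR7, which acts at the end of the route, -0.01. For TM7SF2, EBP and SC5D, which reduce, isomerize and desaturate the ring, the log2 fold changes were -0.07, 0.05 and -0.04, and none of these 6 genes passed 0.05. CYP51A1, the lanosterol demethylase, had only 104 to 135 counts in WT and 105 to 119 in S6K1-/- libraries, and its 95% interval ran from -0.30 to 0.22. Of the exonic length of CYP51A1, 68.2% is shared with other genes on its strand, so that its counts are uncertain, and 36.4% of that of EBP is shared in the same way.

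**Figure D2:**
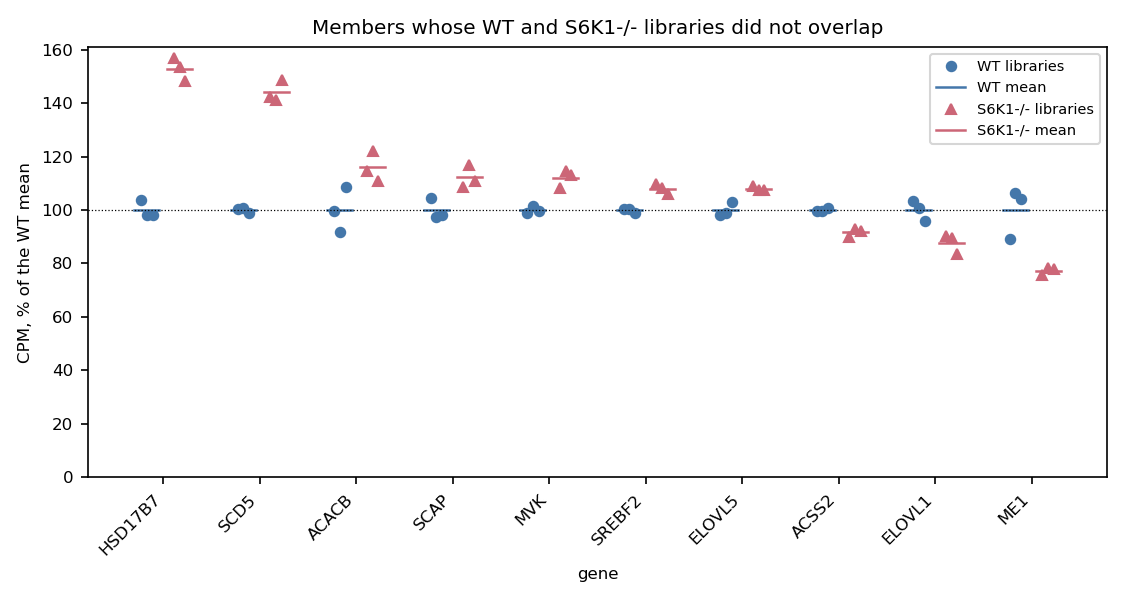
CPM of each library as a percent of the WT mean for the 10 members whose groups did not overlap, with WT libraries as circles, S6K1-/- libraries as triangles and lines for the mean of 3 libraries. HSD17B7 and SCD5 lie highest and ME1 lowest, with 1.53, 1.44 and 0.773 as the fitted S6K1-/- over WT ratios.

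Of the sterol transport genes, STARD4, which carries cholesterol between membranes, had 1710, 1789 and 1772 counts in WT and 1649, 1604 and 1589 in S6K1-/- libraries. Although each raw S6K1-/- count lay below each WT count, the groups overlapped after scaling, and the log2 fold change was -0.06 (95% interval -0.16 to 0.04). NPC1, which exports cholesterol from lysosomes, had 1419, 1107 and 1197 counts in WT and 1171, 1142 and 1007 in S6K1-/- libraries, and a log2 fold change of -0.11 (95% interval -0.26 to 0.05). WT replicate 1 was the highest NPC1 library and WT replicate 2 the lowest in CPM. The log2 fold change of NPC1 was -0.00 without the former and -0.20 without the latter (edgeR quasi-likelihood adjusted p = 0.998 and 0.0392).

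The 6 genes that make fatty acids from acetyl-CoA had a median log2 fold change of -0.04, from -0.107 to 0.00660 with a library left out, and 0 passed 0.001 in either direction. FASN, the fatty acid synthase, had 29657, 28371 and 27247 counts in WT and 27386, 26801 and 23683 in S6K1-/- libraries. In CPM the groups overlapped, at 1182 ± 33.0 and 1125 ± 39.4 (SD, n = 3 each), with a log2 fold change of -0.07 (95% interval -0.16 to 0.02). ACLY, which makes cytosolic acetyl-CoA from citrate, had a log2 fold change of 0.03 (95% interval -0.05 to 0.11), and ACSS2, which makes it from acetate, -0.12 (95% interval -0.23 to -0.02, edgeR quasi-likelihood adjusted p = 0.0985). All 3 S6K1-/- libraries were below all WT libraries for ACSS2 in CPM.
ME1, the cytosolic malic enzyme that supplies NADPH to fatty acid synthesis, had 303, 365 and 337 counts in WT and 248, 261 and 236 in S6K1-/- libraries. The groups did not overlap, at 13.9 ± 1.30 CPM in WT and 10.8 ± 0.181 CPM in S6K1-/- cells (SD, n = 3 each). The log2 fold change of -0.37 (SE 0.082, 95% interval -0.55 to -0.20) had an edgeR quasi-likelihood adjusted p of 0.00633, which missed 0.001. Without the filter on low counts the adjusted p of ME1 was 5.22e-04 in the same test, past 0.001.
The acetyl-CoA carboxylases make malonyl-CoA, and ACACB, the mitochondrial form, had 395, 368 and 411 counts in WT and 439, 477 and 393 in S6K1-/- libraries. In CPM the groups did not overlap, with a log2 fold change of 0.22 (95% interval 0.06 to 0.37, edgeR quasi-likelihood adjusted p = 0.0700).
ACACA, the cytosolic form, could not be compared with any precision. It had 1152, 204 and 526 counts in WT and 635, 625 and 537 in S6K1-/- libraries. The WT libraries lay on either side of the S6K1-/- libraries, with a ratio of the highest to the lowest CPM of 5.70 in WT and 1.10 in S6K1-/- cells. Its log2 fold change of -0.01 had a standard error of 0.353 and a 95% interval from -0.76 to 0.75. Without WT replicate 1 the log2 fold change of ACACA was 0.76 (edgeR quasi-likelihood adjusted p = 0.0525), and without WT replicate 2 it was -0.43 (adjusted p = 0.163 in the same test).
A coding transcript of ACACA aligned over 99.98% of its length to an alternate contig of chromosome 17, a second copy of its region in the GRCh38 assembly. Whether the authors' index held such alternate contigs is not given in the sources used here. Where the mean was 100 counts or more, the WT libraries differed by more than 2-fold for 29 of 72 genes with a transcript on an alternate contig (40.3%), for 14 of 12824 others (0.109%) and for 0 of the 37 other members at this depth. On the contig of ACACA itself this was so for 3 of 7 genes, ACACA included, and DDX52, with 220, 212 and 221 counts in WT, was among the even ones. Of the uneven genes there, GGNBP2, with a mean under 100 counts, had 177, 272 and 37 counts in WT and 34, 22 and 23 in S6K1-/- libraries, and DHRS11 had 25, 25 and 155 counts in WT and 193, 252 and 18 in S6K1-/- libraries. The part of the alternate contigs in these spreads was not tested on reads.

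**Figure D3:**
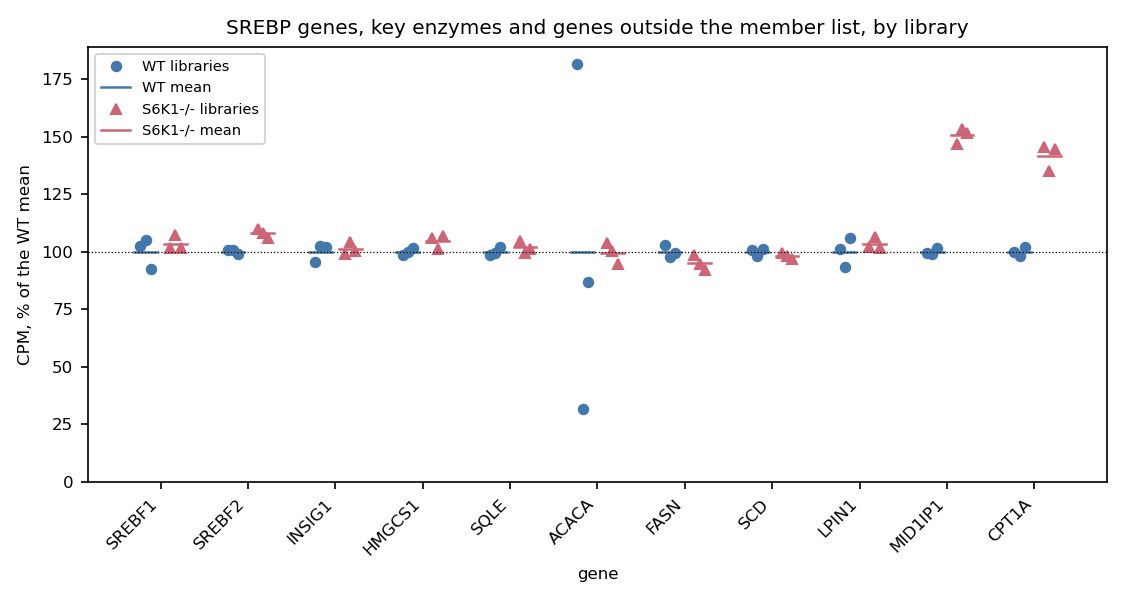
CPM of each library as a percent of the WT mean for SREBP genes, key enzymes and LPIN1, and for MID1IP1 and CPT1A outside the member list, with WT libraries as circles, S6K1-/- libraries as triangles and lines for the mean of 3 libraries. The WT libraries of ACACA are scattered, those of the other genes shown lie close together, and MID1IP1 and CPT1A are higher in all 3 S6K1-/- libraries.

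The 7 genes that elongate and desaturate fatty acids had a median log2 fold change of 0.01, with 0 past 0.001. SCD, the stearoyl-CoA desaturase that makes oleate, had 44541, 43880 and 42645 counts in WT and 42491, 42739 and 38362 in S6K1-/- libraries. These were from 22.5% to 23.4% of all member counts in a library. In CPM the groups overlapped, at 1817 ± 27.8 and 1786 ± 23.6 (SD, n = 3 each), with a log2 fold change of -0.02 (95% interval -0.11 to 0.06).
SCD5, the second stearoyl-CoA desaturase of humans, had 65, 66 and 61 counts in WT and 89, 90 and 86 in S6K1-/- libraries. Every S6K1-/- library lay above every WT library, at 3.83 ± 0.103 CPM against 2.66 ± 0.0305 CPM (SD, n = 3 each). The log2 fold change of 0.53 (SE 0.127, 95% interval 0.25 to 0.80) had an edgeR quasi-likelihood adjusted p of 0.0118, which missed 0.001, and of 0.103 from DESeq2's Wald test, which missed 0.05. On the scale of CPM per kb, SCD5 was at 0.629 ± 0.00721 in WT and SCD at 346 ± 5.30 (SD, n = 3 each), so the level of SCD5 was a small part of the desaturase transcripts.
ELOVL1, which elongates very long saturated chains, had 525, 515 and 464 counts in WT and 442, 446 and 378 in S6K1-/- libraries, and a log2 fold change of -0.19 (95% interval -0.33 to -0.05, edgeR quasi-likelihood adjusted p = 0.0677). ELOVL5, which elongates polyunsaturated chains, had 5446, 5535 and 5456 counts in WT and 5825, 5858 and 5337 in S6K1-/- libraries, and a log2 fold change of 0.11 (95% interval 0.03 to 0.19, adjusted p = 0.0722 in the same test). Neither gene's groups overlapped in CPM. ELOVL6, which elongates palmitate, and FADS1 and FADS2, the desaturases of polyunsaturated fatty acids, had log2 fold changes of 0.01, 0.04 and 0.00, each with a 95% interval within 0.25 of 0.
LPIN1, a phosphatidate phosphatase that mTORC1 phosphorylates and that acts on nuclear SREBP, had 914, 853 and 914 counts in WT and 892, 948 and 821 in S6K1-/- libraries. The groups overlapped, with a log2 fold change of 0.05 (95% interval -0.07 to 0.17).

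Levels of the members in WT cells spanned from 346 CPM per kb for SCD to 0.629 CPM per kb for SCD5 and 0.0499 CPM per kb for NPC1L1. After SCD came FASN at 127 ± 3.54, FDFT1 at 103 ± 2.20, ACLY at 96.8 ± 2.70 and HMGCS1 at 75.8 ± 1.27 CPM per kb (SD, n = 3 each), and the WT libraries of each of these genes lay clear of those of the next. ELOVL5 and ACAT2 followed at 59.8 ± 1.59 and 56.5 ± 2.03 CPM per kb and overlapped, and FADS2, MSMO1, FDPS and SQLE lay from 51.5 down to 47.5 CPM per kb, with each of these 4 overlapping its neighbour. SREBF2 was at 42.8 ± 0.409 CPM per kb, above SREBF1 at 9.64 ± 0.627 CPM per kb (SD, n = 3 each). INSIG1 was at 19.5 ± 0.776 and INSIG2 at 2.39 ± 0.144 CPM per kb.
The members with the 3 lowest adjusted p-values, HSD17B7, ME1 and SCD5, stood only 33rd, 30th and 39th of the 40 in WT level per kb. SCD, FASN and FADS2 together gave 43.3% to 45.5% of all member counts in a library, and none of these 3 passed 0.05. Exonic length was the union of all annotated exons, so these levels are low for genes with long, rarely used exons.

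**Figure D4:**
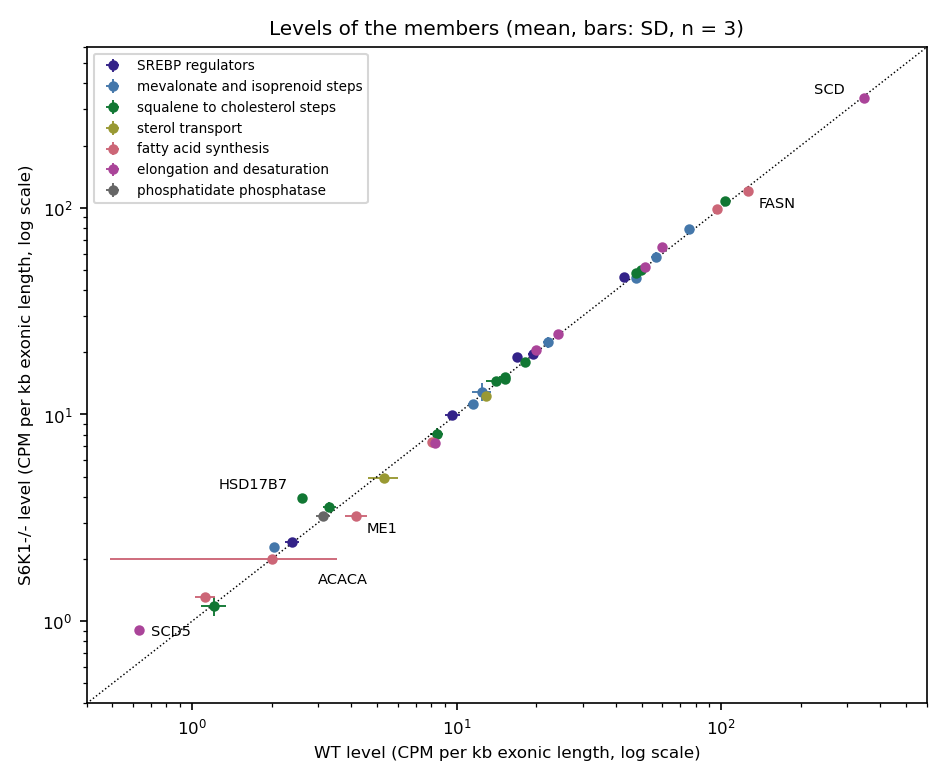
Mean level of the 39 members tested in WT (x axis) and S6K1-/- hESCs (y axis) in CPM per kb of exonic length, both on log scales, with bars for the SD of 3 libraries and a dotted line of equal levels. The points follow the line from SCD5 to SCD, HSD17B7 and SCD5 lie above it, ME1 lies below it, and the WT bar of ACACA is wide.

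Around the members, 89 further genes of lipid metabolism were set out in 8 lists, and 88 of them were tested. Of these, 2 were higher and 0 were lower at 0.001, a share of 2.27% beside 3.96% of all genes, and at 0.05 there were 6 higher and 7 lower, 14.8% beside 13.8%. The median log2 fold change of the 88 was -0.02.
MID1IP1 encodes a protein that promotes the assembly of acetyl-CoA carboxylase into active polymers. It had 3974, 3988 and 3872 counts in WT and 5648, 6026 and 5408 in S6K1-/- libraries, and all S6K1-/- libraries lay above all WT libraries. The mean of MID1IP1 rose from 164 ± 2.34 to 247 ± 5.74 CPM (SD, n = 3 each), which on the log2 scale is 0.59 (SE 0.038, edgeR quasi-likelihood adjusted p = 4.23e-08). CPT1A, the malonyl-CoA-sensitive carnitine palmitoyltransferase that admits fatty acids to mitochondria for oxidation, had 1850, 1843 and 1807 counts in WT and 2601, 2467 and 2402 in S6K1-/- libraries. Here too the groups were apart, and CPT1A rose from 76.3 ± 1.43 to 108 ± 4.35 CPM (SD, n = 3 each), which on the log2 scale is 0.50 (SE 0.043, edgeR quasi-likelihood adjusted p = 8.65e-07).
The 17 genes listed as further fatty acid enzymes include MID1IP1, whose product is not itself an enzyme, and the carrier gene SLC25A1. Of the 17, 5 passed 0.05 (29.4%, beside 13.8% of all genes), with MID1IP1 higher and FADS3, ELOVL2, ELOVL4 and ACSL1 lower. ELOVL2, an elongase of polyunsaturated chains, had 56, 52 and 70 counts in WT and 19, 35 and 20 in S6K1-/- libraries, a log2 fold change of -1.21 (SE 0.229, edgeR quasi-likelihood adjusted p = 0.00211), which missed 0.001. FADS3, a sphingolipid desaturase, had a log2 fold change of -0.33 (adjusted p = 0.00114 in the same test) with the groups apart. Of the 13 genes of fatty acid oxidation, 3 passed 0.05 (23.1%), with CPT1A and the carnitine carrier SLC25A20 higher and the nuclear receptor PPARA lower. Of the 10 kinases and factors that act on lipogenic genes, which include SRPK1 and SRPK2, 1 passed 0.05, the AMPK subunit gene PRKAA2, at a log2 fold change of -0.27.
The 11 genes listed under glycerolipid synthesis include PNPLA2, a triglyceride lipase and not a synthesis gene (log2 fold change -0.12). All 11 had log2 fold changes below 0, beside 50.6% of all genes, with a median of -0.09, and 0 of them passed 0.05. GPAM, at -0.00, turned to 0.00324 with DESeq2's size factors, which left 10 of 11 below 0, and with a library left out there were 9 or 10. AGPAT1, at -0.04 (SE 0.192), has a transcript on an alternate contig, as ACACA does. The remaining lists, in the order of SREBP proteases and ubiquitin ligases, LXR with sterol export and storage, further sterol enzymes and carriers, and isoprenoid branches, had medians of 0.06, -0.04, -0.03 and 0.04 and 1 gene each past 0.05. These were ERLIN2, MYLIP, NPC2 and PGGT1B, none of them past 0.001.

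**Figure D5:**
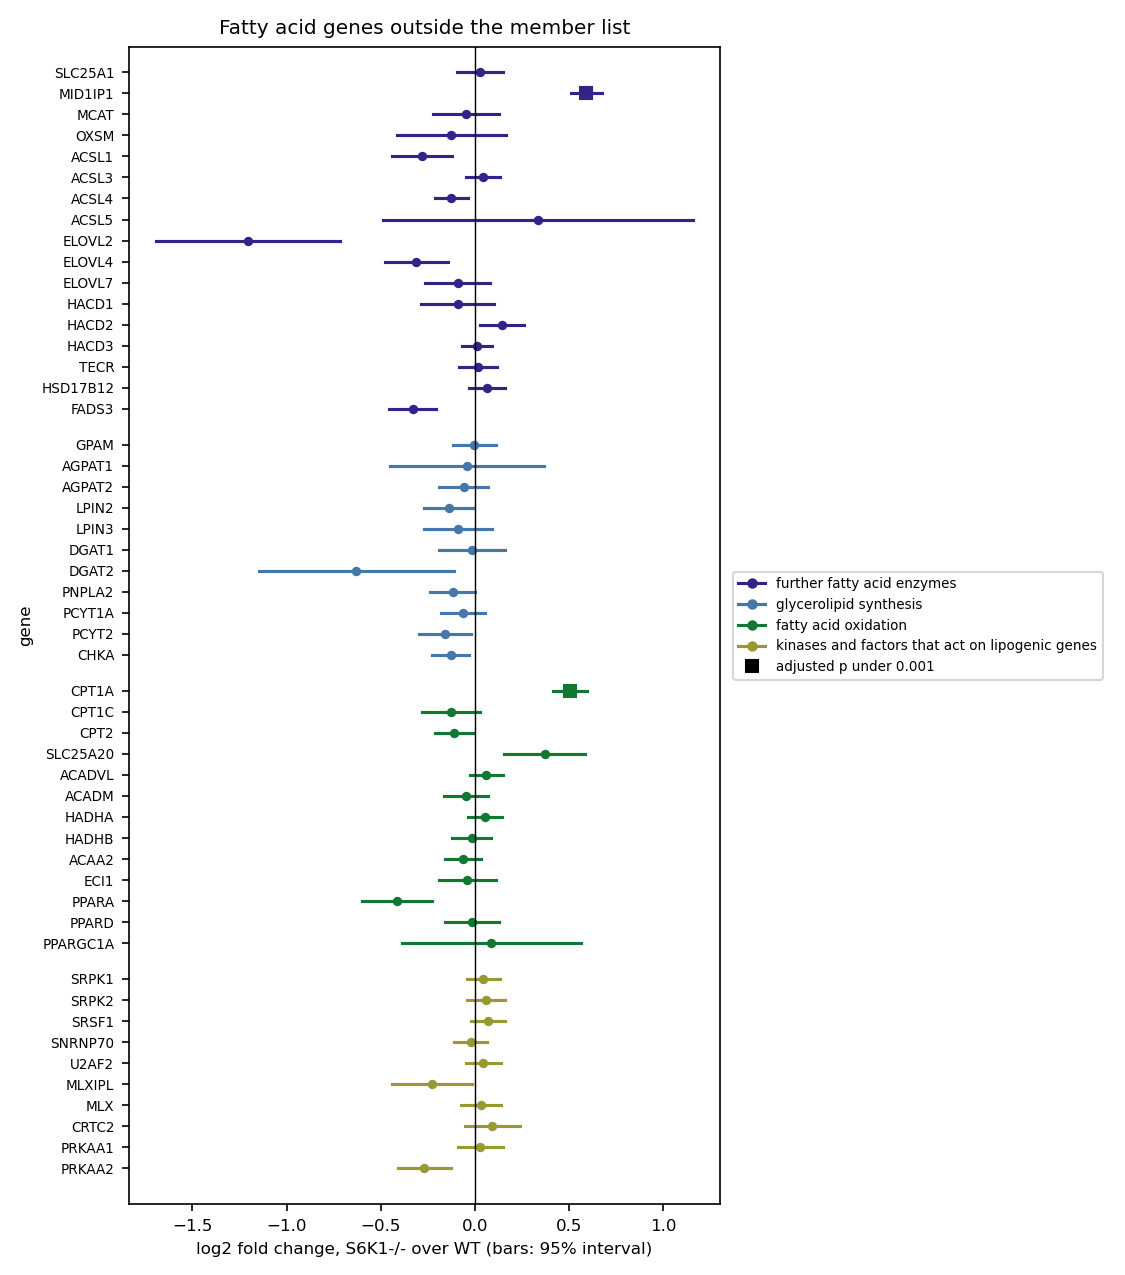
Log2 fold changes, S6K1-/- over WT, of the tested genes in 4 lists of fatty acid metabolism outside the members, with bars for the 95% interval of edgeR's fit (n = 3 libraries a group) and squares for an adjusted p under 0.001. MID1IP1 at 0.59 and CPT1A at 0.50 are the squares, and the glycerolipid genes lie below 0, GPAM, DGAT1 and AGPAT1 by less than their SE, and GPAM above 0 with DESeq2's size factors.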

How the data were processed

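RNA was poly(A)-selected with a stranded kit, and paired reads were trimmed with Trim Galore 0.6.5, aligned to GRCh38 with Bowtie2 2.4.5, which does not span splice junctions, and counted with featureCounts, per the submitters' processing notes and the methods. The authors deposited whole-number counts per gene symbol, without normalization. The annotation release and the strand setting of the counting are not given in the sources used here. A deposited table of the authors' own DESeq2 comparison (version 1.37.4), with fold changes and p-values, was not used.

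Counts were tested in R 4.3.3 with edgeR 4.0.16 (filterByExpr, TMM scaling, quasi-likelihood test, group as the only term), with p-values adjusted by Benjamini-Hochberg over all 19521 genes tested and the study's threshold of 0.001. Intervals of 95% come from the same fit. CPM used TMM-scaled library sizes, and the group means and SDs are over 3 libraries. Libraries of a group differed by more than counting noise (chi-square per degree of freedom 2.22 to 4.45), and each was counted as a replicate. The steps were tested on simulated data. DESeq2 1.42.0, other filters, other size factors, a replicate block and leaving out each library were alternatives. Positions and exon overlaps came from GENCODE 44, and 18890 coding transcripts were aligned to the assembly's alternate contigs with minimap2 2.31, where 706 genes aligned over at least 90% of a transcript.

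The members, lists and roles were chosen with earlier results of these data known. Every member was given by name or count. Values per library were given for members past the threshold, for 10 members chosen by role and, chosen after their values were seen, for members whose groups did not overlap and for some other members. From the further lists, genes past 0.001 were named by rule, and those past 0.05 were named after their values were seen. The main fit did not pair libraries by replicate number.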

Additional observations from a re-analysis of the deposited data

How the results depend on the processing

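HSD17B7, MID1IP1, CPT1A and RPS6KB1 kept their direction and their side of 0.001 under every alternative run. Over all genes, 982 lower and 591 higher genes were called without the filter on low counts, 1622 and 1067 at 0.05, and 313 to 445 lower and 175 to 235 higher with each library left out. Among the members, 1 was lower without the filter, ME1 of fatty acid synthesis (log2 fold change -0.37, edgeR quasi-likelihood adjusted p = 5.22e-04), and at 0.05 there were 1 lower and 3 higher, namely 1 SREBP regulator (SCAP) higher, 1 fatty acid synthesis gene (ME1) lower, 1 desaturase (SCD5) higher and HSD17B7. In the further lists 3 genes were lower without the filter, and 7 lower and 6 higher at 0.05. The cause was not tested.

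The members' median log2 fold change was 0.0148 as reported, 0.0213 with DESeq2's size factors, 0.0241 with DESeq2's Wald test, 0.0138 with at least 10 counts in every library and 0.0188 with the replicate block. It was 0.0184 without ACACA and CYP51A1, an alternative chosen after seeing the data, and 0.00863 to 0.0327 with each library left out. Leaving out each library gave medians of 0.00628 to 0.0436 for squalene to cholesterol steps, -0.129 to -0.0406 for sterol transport, -0.107 to 0.00660 for fatty acid synthesis, 0.0250 to 0.0871 for SREBP regulators, -0.00778 to 0.0595 for mevalonate steps, 0.0126 to 0.0290 for elongation and desaturation and 0.00102 to 0.0966 for LPIN1.

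Changes of sign occurred in 31 of 462 gene values, none of them past the threshold. With DESeq2's size factors these were MSMO1 at 0.00474, NSDHL at 0.00485 and DHCR7 at 6.74e-05, and with the Wald test MSMO1 at 0.00743, NSDHL at 0.00759, DHCR7 at 0.00278 and ACACA at 0.000391. With each library left out, the log2 fold changes ran from -0.00596 to 0.0404 for INSIG1, -0.0266 to 0.0539 for INSIG2, -0.00778 to 0.0616 for ACAT2, -0.0350 to 0.120 for PMVK, -0.0407 to 0.0419 for IDI1, -0.111 to 0.0436 for CYP51A1, -0.0323 to 0.0476 for MSMO1, -0.0345 to 0.0247 for NSDHL, -0.0197 to 0.0275 for DHCR7, -0.434 to 0.764 for ACACA and -2.32e-05 to 0.0222 for FADS2. The cause was not tested.

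Whether same-numbered libraries of the groups were prepared in pairs is not given in the sources used here. Their deviations from the group means had correlations of 0.018, 0.0017 and 0.032. Such values show no shared deviation but cannot show how the libraries were prepared. With the replicate block, ACACA was at 0.162, and neither a member nor MID1IP1 or CPT1A changed its side of 0.001. ACACA had the largest SE of the members tested (0.353), followed by SCD5 and CYP51A1 (0.127 and 0.123), which had few counts, and all results rest on 1 clone.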
